A study of Mus musculus with 9 samples.

Results

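The collagen chain genes of the mouse were followed in 3 kinds of cells measured on whole-transcript microarrays. They were chosen by name alone: every transcript cluster whose annotated gene symbol was Col, a number, the letter a and a number was taken, which gave 44 genes with 1 cluster each among the 39601 clusters with at least 1 gene symbol. The groups held 3 arrays each. Pluripotent mouse embryonic stem cells (mESC) were purchased, and nothing states that the samples were separate cultures, so the p-values that involve them may measure only technical spread. Embryo samples were cells of the incisor epithelium of Sox2-GFP mice at E14.5. Adult samples came from P30 Sox2-GFP mice and from the labial cervical loop, a bud of dental epithelium that renews the continuously growing incisor. In both dental groups the GFP-positive, living (AAD-) cells were sorted by flow cytometry, and every sample pooled several animals. The sort was on the reporter and on viability, with no gate on an epithelial surface protein recorded in the labels.

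Collagens are the main structural proteins of the extracellular matrix. Their alpha chains wind into a helix in the endoplasmic reticulum, are trimmed after secretion and are then cross-linked. Fibrillar chains build the fibres of bone, dentin, skin and tendon and are made mostly by mesenchymal cells, fibril-associated chains coat those fibres, and network chains form the sheet of the basement membrane under an epithelium. A dental epithelium rests on such a membrane, and the transmembrane collagen of its hemidesmosomes ties the basal cells to it.

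RefSeq promoter entries on GRCm38.p6 covered 35 of the 44 genes with 38 start sites. The 250 bases before the start are shown for 2 fibrillar genes and the transmembrane gene of the hemidesmosome, all lower in embryo than in adult cells, to set their differing base composition side by side. Col3a1 is at chr1:45311288-45311537 (plus strand), Col11a1 at chr3:114030290-114030539 (plus strand) and Col17a1 at chr19:47692043-47692292 (minus strand). The deposited Col17a1 cluster starts inside its window. Capitals mark the TATA box (TATAAA), the CCAAT box (CCAAT, read as ATTGG where it lies on the opposite strand) and the GC box (GGGCGG), each searched on both strands, and no matches overlap in these windows.
Col3a1: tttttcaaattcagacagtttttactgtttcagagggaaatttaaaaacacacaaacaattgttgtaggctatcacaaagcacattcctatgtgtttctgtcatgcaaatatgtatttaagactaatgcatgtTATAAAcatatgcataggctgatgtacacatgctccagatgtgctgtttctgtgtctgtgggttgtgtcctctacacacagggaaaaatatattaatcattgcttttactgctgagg
Col11a1: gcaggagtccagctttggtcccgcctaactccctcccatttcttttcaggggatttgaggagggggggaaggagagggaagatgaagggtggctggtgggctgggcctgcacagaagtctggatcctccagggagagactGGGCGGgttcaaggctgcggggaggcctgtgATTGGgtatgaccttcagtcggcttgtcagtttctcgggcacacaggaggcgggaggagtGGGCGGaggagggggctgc
Col17a1: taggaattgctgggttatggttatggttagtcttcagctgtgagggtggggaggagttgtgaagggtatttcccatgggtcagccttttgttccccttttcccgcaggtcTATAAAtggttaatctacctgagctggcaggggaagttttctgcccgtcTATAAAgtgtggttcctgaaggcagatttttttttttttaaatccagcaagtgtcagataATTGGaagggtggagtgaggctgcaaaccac

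The GC content of the windows was 35.2% for Col3a1, 46.0% for Col17a1 and 62.4% for Col11a1, against a median of 52.4% over all 32851 windows. The Col3a1 window held 1 TATA box and the Col17a1 window 2, whereas Col11a1 held none but had 2 GC boxes. Over the 38 collagen windows the TATA box was found in 5 (13.2%, against 12.4% of all windows), the CCAAT box in 13 (34.2% against 33.8%) and the GC box in 22 (57.9% against 32.7%). These matches are a description of letters, and the binding of a factor was not measured.

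Embryo and adult dental cells were compared first, to ask how collagen expression differs between the forming and the mature incisor. Collagen signals were lower in the embryonic cells, and the largest differences lay in chains of collagen fibres (Col1a1, Col1a2 and Col3a1) and in a chain that coats them (Col12a1). A gene was called when its adjusted p from limma was under 0.05 and its log2 difference at least 1. By this rule 7 of the 44 collagens (15.9%) were lower in embryo and 0 were higher, where 2.83% of all clusters were called lower, 3.59% higher and 6.41% either way. The median difference of the 44 genes was -0.39 log2 (embryo minus adult), against 0.01 over all clusters, and 40 of the 44 differences were negative. A further 8 genes passed the adjusted p but not the minimum difference, of which 7 were lower and 1 (Col18a1) was higher. At the adjusted p alone 6314 of the 39601 clusters passed. At an unadjusted p under 0.05, 26 of the 44 genes passed, beside 10579 of all clusters. For 25 genes the 3 embryo and the 3 adult arrays did not overlap, 23 of them with the embryo arrays below, where 27.8% of all clusters had arrays that did not overlap. In bulk samples fewer cells of a type and less RNA per cell cannot be told apart.

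**Figure D1:**
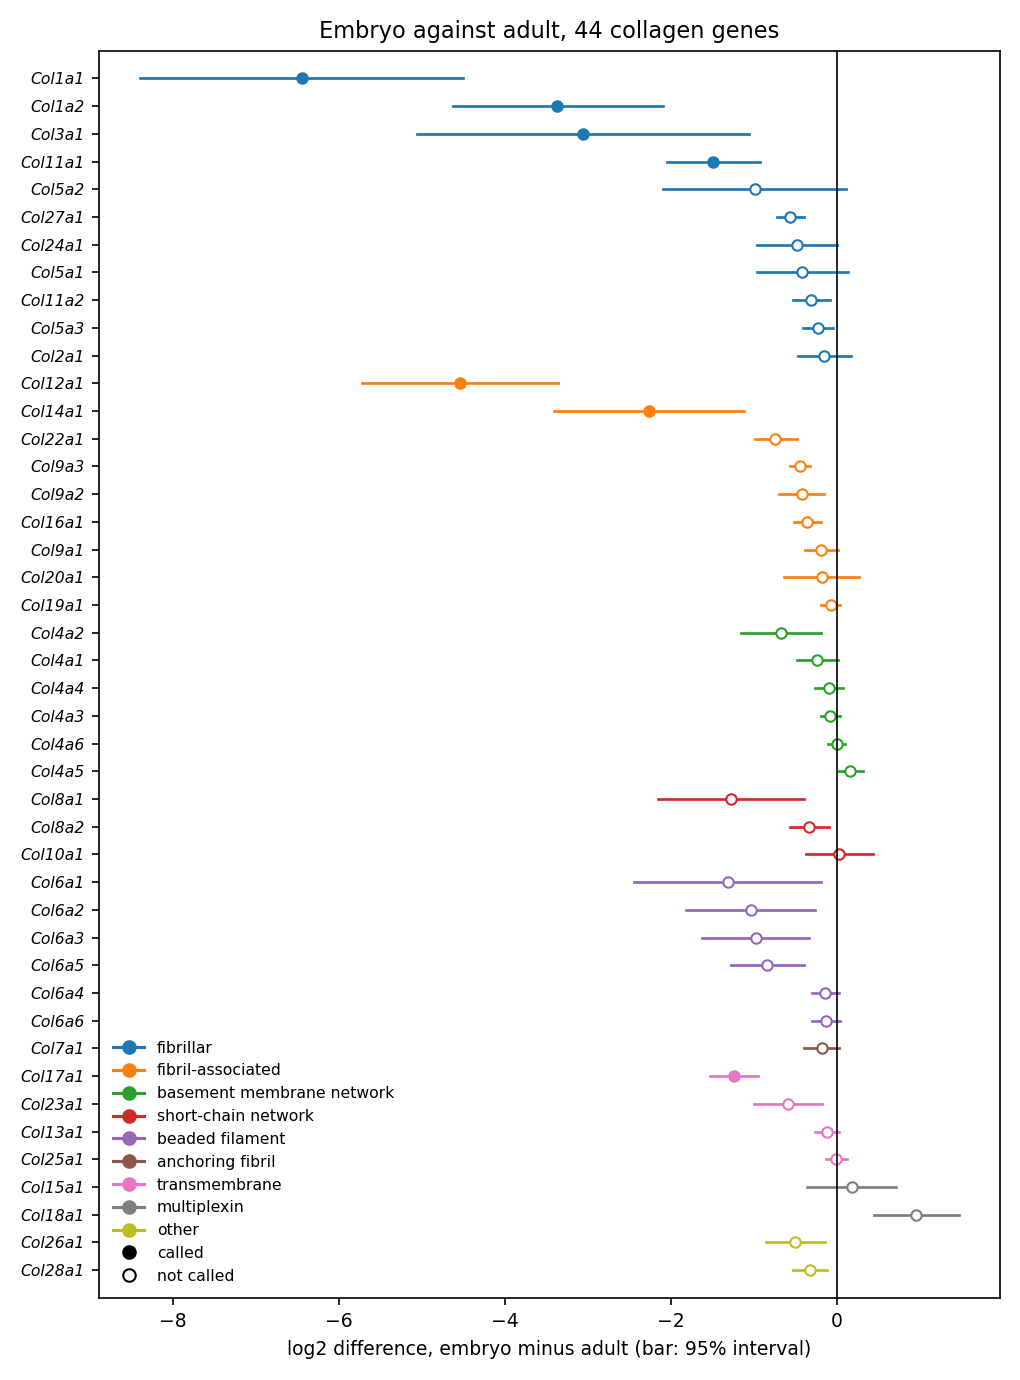
Difference in log2 signal between embryo and adult cells (horizontal axis) for each of the 44 collagen genes, grouped and coloured by structural class. Points are limma estimates, bars are 95% intervals, and filled points are the 7 called genes. Negative values mean a lower signal in embryo, and the estimates run from -6.45 for Col1a1 to 0.96 for Col18a1.

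The fibrillar class held 4 of the 7 called genes, out of 11 fibrillar members with a median difference of -0.56. Of all clusters 2.83% were called lower in embryo. Col1a1 and Col1a2 encode the chains of type I collagen, the main fibre protein of bone, dentin and skin. Col1a1 (chromosome 11, 94936224 to 94953042 in the authors' annotation) gave log2 signals of 9.12, 7.32 and 6.73 in embryo, 15.89, 13.56 and 13.07 in adult and 7.93, 8.32 and 8.89 in mESC. All adult arrays lay far above the other 6, and embryo and mESC overlapped. The embryo minus adult difference was -6.45 ± 0.84 (SE, n = 3 arrays per group, limma adjusted p = 0.00179), an 87.4-fold lower signal, with a 95% interval of -8.4 to -4.5.

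Col1a2 (chromosome 6, 4504814 to 4541543) gave 8.22, 7.58 and 8.06 in embryo, 12.63, 10.7 and 10.63 in adult and 6.34, 6.82 and 7.45 in mESC. Here too every adult array was higher than every other array, and the embryo arrays lay just above the mESC arrays. Its difference was -3.37 ± 0.55 (SE, limma adjusted p = 0.0048), or 10.3-fold. The log2 difference of Col1a2 was thus smaller than that of its partner chain Col1a1, in the same direction; the difference between the 2 genes was not tested.

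Col3a1, the chain of type III collagen, which accompanies type I in soft connective tissue and vessel walls, lies on chromosome 1 from 45311538 to 45349706. It gave 6.79, 6.05 and 5.14 in embryo, 11.17, 8.25 and 7.74 in adult and 5.51, 5.7 and 6.26 in mESC. The adult values spanned over 3 log2 units, yet none reached down to an embryo value. Its difference of -3.06 ± 0.86 only just passed (SE, limma adjusted p = 0.0495, 8.34-fold). The call was lost on leaving out any 1 array other than adult replicates 1 and 3, with adjusted p up to 0.153.

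Col11a1, a chain of the minor fibrillar collagen that limits fibril width in cartilage, lies on chromosome 3 from 114030540 to 114220718. Its signals were 5.99, 5.61 and 5.99 in embryo, 7.93, 7.21 and 6.92 in adult and 5.45, 5.52 and 5.43 in mESC, so the adult arrays again stood above all others. The difference was -1.49 ± 0.24 (SE, limma adjusted p = 0.00463). Its partner Col11a2 lay near the negative controls, at 4.94, 4.79 and 4.75 in embryo, 5.31, 4.94 and 5.15 in adult and 4.94, 4.94 and 4.93 in mESC, and differed by -0.31 (adjusted p = 0.0778).

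The other fibrillar genes were not called. Col5a2, a chain of type V collagen, which is built into type I fibrils and governs their width, gave 6.94, 6.83 and 6.83 in embryo and 9.16, 7.19 and 7.23 in adult. Its difference of -0.99 (adjusted p = 0.238) rested largely on adult replicate 1, without which it was -0.34. Col5a2 lies tail to tail with Col3a1, 24614 bases away, and their differences were -0.99 and -3.06. Its partner Col5a1 differed by -0.42 (adjusted p = 0.324). Col27a1, a fibrillar chain of cartilage, differed by less but with a narrow spread: it gave 6.47, 6.46 and 6.44 in embryo and 7.16, 6.93 and 6.95 in adult (-0.56 ± 0.07, adjusted p = 0.00145). Col24a1 differed by -0.48 (adjusted p = 0.19) and Col5a3, under the negative-control median in all groups, by -0.23 (adjusted p = 0.0888). Col2a1, the main fibrillar chain of cartilage, gave 5.67, 5.53 and 5.43 in embryo and 6.01, 5.53 and 5.53 in adult, groups that shared a value (-0.15, adjusted p = 0.602). The mean log2 signal over 10 chondrocyte markers was 4.36 to 4.52 in embryo and 4.82 to 4.99 in adult, beside a negative-control median of 4.81. Of these markers 1 was called lower in embryo and 0 higher (2.83% and 3.59% of all clusters). Matn4, a cartilage matrix gene, was the called marker and gave 5.72, 6.23 and 6.34 in embryo and 8.47, 8.57 and 8.6 in adult (-2.45, adjusted p = 7.74e-05).

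**Figure D2:**
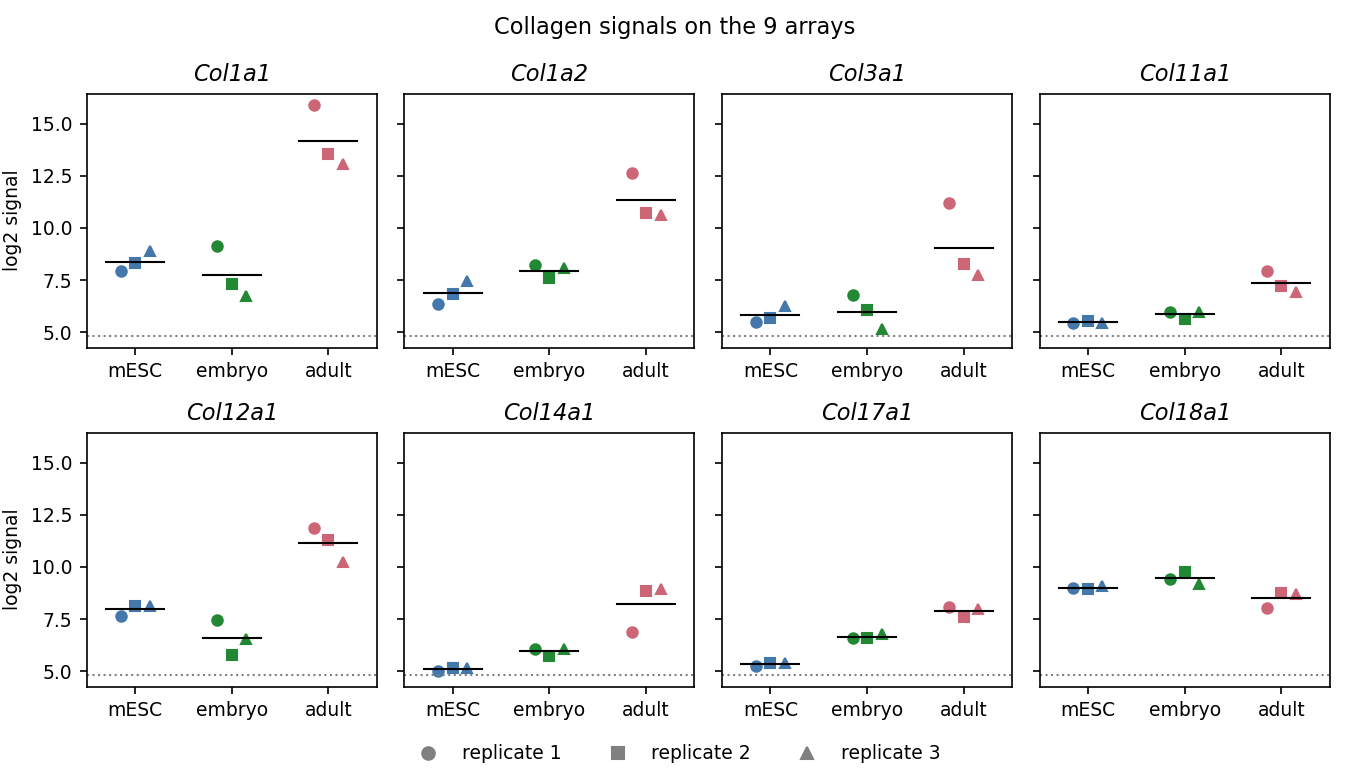
Log2 signal (vertical axis) of 8 collagen genes on each of the 9 arrays. Marker shapes stand for replicate numbers, horizontal bars for group means, and the dotted line for the negative-control median of 4.81. The adult arrays stand above the embryo arrays in every panel but that of Col18a1, where the embryo arrays are the higher.

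Among 9 fibril-associated genes, 2 were called lower in embryo (2.83% of all clusters) and the median difference was -0.42. Col12a1 and Col14a1 encode homotypic collagens that sit on the surface of type I fibrils. Col12a1 (chromosome 9, 79598991 to 79718831) gave 7.46, 5.77 and 6.54 in embryo, 11.85, 11.31 and 10.23 in adult and 7.64, 8.14 and 8.14 in mESC. The adult arrays were highest and every embryo array lay under every mESC array. The embryo minus adult difference was -4.54 ± 0.51 (SE, limma adjusted p = 0.000938), a 23.3-fold lower signal.

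Col14a1 (chromosome 15, 55307750 to 55520803) gave 6.05, 5.74 and 6.05 in embryo, 6.87, 8.85 and 8.92 in adult and 5.02, 5.13 and 5.16 in mESC. It was the called collagen in which adult replicate 1 was the lowest adult array, although still above all embryo arrays. The difference was -2.27 ± 0.49 (SE, limma adjusted p = 0.0176, 4.81-fold) with all arrays and -2.94 (adjusted p = 3e-05) without adult replicate 1. The call was lost without adult replicate 2 (-1.95, 0.0548), adult replicate 3 (-1.91, 0.052), embryo replicate 2 (-2.16, 0.0659) or embryo replicate 3 (-2.32, 0.0521), where the second value is the adjusted p.

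The remaining fibril-associated genes differed by under 1 log2 unit. Col9a3, a chain of type IX collagen of cartilage, gave the same value of 5.68 on all embryo arrays, with 6.19, 6.05 and 6.14 in adult (-0.45, adjusted p = 0.00121). Col22a1, a chain found at tissue junctions, differed by -0.74 (adjusted p = 0.00327), Col16a1 by -0.36 (adjusted p = 0.0116) and Col9a2, a partner of Col9a3, by -0.42 (adjusted p = 0.0496). Col9a1, the other partner, lay under the negative-control median in all groups, as did Col19a1. Col20a1, whose cluster also carries the symbol of another transcript, differed by -0.18 (adjusted p = 0.661).

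Of the 4 transmembrane collagens, beside 2.83% of all clusters called lower in embryo, Col17a1 was called. It encodes the collagen of the hemidesmosome, the junction that fixes basal epithelial cells to the basement membrane, and people who lack it have blistering skin and defective enamel. Col17a1 (chromosome 19, 47646341 to 47692094) gave 6.59, 6.59 and 6.78 in embryo, 8.07, 7.61 and 8.0 in adult and 5.25, 5.41 and 5.4 in mESC. No groups overlapped, and the order was mESC, embryo, adult. The embryo minus adult difference was -1.24 ± 0.13 (SE, limma adjusted p = 0.0006), a 2.36-fold lower signal, and the call was kept on leaving out any of the 9 arrays (-1.38 to -1.15). Col23a1 differed by -0.59 (adjusted p = 0.0653), while Col13a1 and Col25a1 lay under the negative-control median in all groups.

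Some other genes of the same junction were followed beside Col17a1. Lama3, a laminin chain of epithelial basement membranes, gave 6.54, 6.54 and 6.58 in embryo and 8.76, 8.21 and 8.0 in adult (-1.77 ± 0.17 SE, limma adjusted p = 0.000504). Itgb4, the integrin chain of the hemidesmosome, gave 8.83, 8.9 and 9.29 in embryo and 9.92, 10.14 and 10.3 in adult (-1.11 ± 0.14, adjusted p = 0.0015). For both genes the adult arrays lay above the embryo arrays. Itga6, the partner chain of Itgb4, differed by 0.67 (adjusted p = 0.0712), the linker Plec by -0.34 (adjusted p = 0.0584) and the tetraspanin Cd151 by 0.12 (adjusted p = 0.909), and these did not pass. Col7a1, the chain of the anchoring fibrils that fasten the basement membrane to the tissue below, gave 5.94 on every embryo array and 5.94, 6.15 and 6.28 in adult, and its difference of -0.18 did not pass (adjusted p = 0.237).

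None of the 6 basement membrane network chains was called, and 2 passed an unadjusted p of under 0.05, beside 10579 of the 39601 clusters. Col4a1 and Col4a2 encode the chains found in nearly all basement membranes. Col4a1 gave 6.05, 6.03 and 6.03 in embryo and 6.45, 6.32 and 6.05 in adult, so 1 adult array reached the embryo level (-0.24, adjusted p = 0.202, 95% interval -0.48 to 0.01). Col4a2 gave 6.62, 6.62 and 6.41 in embryo and 7.59, 7.33 and 6.74 in adult, which did not overlap, but the difference of -0.67 did not pass (adjusted p = 0.0701). These genes stand head to head on chromosome 8 and share a promoter; their RefSeq starts overlap by 22 bases at chr8:11312805-11312826. That stretch is shown on the plus strand because both transcripts hold it. It was not searched for the boxes, so no capitals mark it, although it holds the letters of the GC box.
Col4a1/Col4a2: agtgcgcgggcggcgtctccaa

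The pairs Col4a3 with Col4a4 and Col4a5 with Col4a6 encode network chains found in fewer tissues. Both pairs are also arranged head to head, 71 and 1308 bases apart in the authors' annotation. Col4a3, Col4a4 and Col4a6 lay under the negative-control median in all groups, so their levels there carry no reliable order. Col4a5 gave 5.01, 5.16 and 5.16 in embryo and 4.98, 4.93 and 4.93 in adult, an arrangement with the embryo arrays above (0.16, adjusted p = 0.142).

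Col18a1, a basement membrane collagen that carries heparan sulfate chains and from which endostatin is cut, showed the opposite direction to the called genes. Col18a1 (chromosome 10, 77052178 to 77166548) gave 9.43, 9.77 and 9.19 in embryo, 8.02, 8.77 and 8.72 in adult and 8.99, 8.95 and 9.06 in mESC. All embryo arrays were above all adult arrays, with mESC between them. The difference of 0.96 ± 0.22 (SE, limma adjusted p = 0.0211) fell just short of the minimum of 1, and Col18a1 was called higher without adult replicate 2 (1.09), adult replicate 3 (1.07) or embryo replicate 3 (1.1). Its relative Col15a1 gave 5.72, 4.92 and 4.71 in embryo and 4.98, 4.92 and 4.92 in adult, which overlapped (0.18, adjusted p = 0.734).

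The beaded filament collagens, chains of the microfibrils around connective tissue cells, were not called at any of 6 genes (median -0.91). At an unadjusted p under 0.05, 4 of these genes passed, beside 10579 of the 39601 clusters. Col6a1 gave 5.41, 5.25 and 4.69 in embryo and 7.65, 6.07 and 5.57 in adult (-1.31, adjusted p = 0.124). Col6a2 gave 5.57, 5.42 and 5.02 in embryo and 7.19, 6.15 and 5.78 in adult (-1.04, adjusted p = 0.082). Col6a3, the third chain of the main form, gave 5.93, 5.23 and 5.16 in embryo and 6.96, 6.32 and 5.99 in adult (-0.98, adjusted p = 0.0505). In all 3 genes the adult arrays lay above the embryo arrays without overlap and adult replicate 1 was the highest. Without adult replicate 3, which was the lowest adult array for each, all 3 were called (Col6a1 -1.74, Col6a2 -1.33 and Col6a3 -1.2), and Col6a3 also without embryo replicate 1 (-1.23). Col6a5 differed by -0.84 (adjusted p = 0.0213), and Col6a4 and Col6a6 lay under the negative-control median in all groups.

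Of the short-chain collagens, Col8a1, a chain of vessel walls and cornea, gave 4.73, 4.4 and 4.04 in embryo and 6.59, 5.41 and 5.0 in adult (-1.28, adjusted p = 0.0626). Its embryo signals all lay under the negative-control median. Tested over the clusters above the negative-control median alone, Col8a1 (adjusted p = 0.0243) and Col6a2 (0.0345) were called. Col8a2 differed by -0.33 (adjusted p = 0.0592), and Col10a1, the chain of hypertrophic cartilage, was under the negative-control median in all groups. Col26a1 differed by -0.5 (adjusted p = 0.0712) and Col28a1 by -0.32 (adjusted p = 0.0458), the latter with means under the negative-control median in every group. In all, 12 of the 44 genes had means under the negative-control median in every group, and 15 had the same value on 4 or more arrays. All 7 called genes had embryo means above that median. Above the 95th percentile of negative controls (9.27) lay Col1a1, Col1a2 and Col12a1 in adult and Col18a1 in embryo.

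Adult replicate 1 stood apart for these genes. It gave the highest adult signal of 38 of the 44 collagens (86.4%), where it was the highest adult array for 28.5% of all clusters. Embryo replicate 1 was the highest embryo array for 34 of the 44 (77.3%, against 37.6% of all clusters). Both counts were taken over all 44 genes, 12 of which had means under the negative-control median in every group. The order of the arrays is not reliable for those 12, and a lead could be as small as 4.09 against 4.08 (Col4a6 in adult). Without adult replicate 1 the 7 genes were still called lower in embryo, with differences of -5.59 for Col1a1, -2.71 for Col1a2, -2.0 for Col3a1, -1.2 for Col11a1, -4.18 for Col12a1, -2.94 for Col14a1 and -1.15 for Col17a1. Col1a1 and Col3a1 lost over 0.8 log2 units in this way, and Col17a1 under 0.1.

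Markers of other cell types moved between the adult arrays as well. Beside the counts of every marker list stand 2.83% of all clusters called lower in embryo than in adult and 3.59% higher. Over 18 mesenchyme markers that are not collagens, the mean log2 signal was 8.79, 7.93 and 7.59 in adult, 6.84, 6.01 and 5.87 in embryo and 5.76 to 6.42 in mESC, so the first replicate was highest in both dental groups. Of these markers 6 were called lower in embryo and 0 higher (median -1.2, and 5 with a median of -0.81 without adult replicate 1). Over 12 osteoblast and odontoblast markers the mean was 8.49, 6.79 and 6.68 in adult and 4.47 to 4.65 in embryo, under the negative controls, with 7 called lower in embryo. Dspp, the dentin matrix gene of odontoblasts, gave 11.67, 9.26 and 10.01 in adult and 3.81 to 3.96 in embryo. Dmp1, a matrix gene of bone and dentin, gave 12.65 on adult replicate 1 against 5.92 and 6.63 on the others.

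The mean of 7 ameloblast markers was 14.68, 12.04 and 12.23 in adult, again highest on the first array, and 5.49 to 6.06 in embryo. That lead was widest for Amtn (14.01, 4.39 and 5.64 in adult) and Odam (9.99, 5.66 and 5.36). It was small for Ambn (19.47, 19.38 and 19.27), Enam (19.22, 18.84 and 18.82) and Amelx (19.12, 18.98 and 18.96). Klk4 (5.99, 3.87 and 4.04) and Mmp20 (14.95, 13.16 and 13.49) lay between these. Ambn, Enam, Amelx and Mmp20 were called lower in embryo (2.83% of all clusters), and Klk4, Amtn and Odam were not called. In embryo Odam gave 7.1, 6.23 and 9.25, a difference of 0.52 (limma adjusted p = 0.875). The 15 macrophage and leukocyte markers gave 9.25, 9.04 and 9.19 in adult and 4.73 to 5.44 in embryo, with 14 called lower in embryo, and did not single out an adult array. The 13 epithelial markers overlapped in their mean (11.44 to 12.29 in adult and 11.8 to 12.38 in embryo), with 3 called higher and 3 lower in embryo, and adult replicate 1 was the lowest adult array. The 10 pericyte and smooth muscle markers averaged 7.13, 7.05 and 7.03 in adult and 5.72 to 6.01 in embryo, with 4 called lower in embryo. The means of 10 endothelial markers (4.76 to 4.96 in adult and 4.26 to 4.56 in embryo) and of 8 endoderm markers (3.84 to 3.98 over both) lay near or under background, and those of 7 Schwann cell markers overlapped (5.63 to 6.66 and 5.12 to 6.27). Among these, 1 endothelial marker (Cdh5, -1.4, adjusted p = 0.00111) and 1 Schwann cell marker (S100b, -1.52, adjusted p = 0.00802) were called lower in embryo. The 8 pluripotency markers averaged 12.24 to 12.28 in mESC and 4.82 to 5.25 in the dental groups. The part of these other cell types in the collagen differences was not tested.

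**Figure D3:**
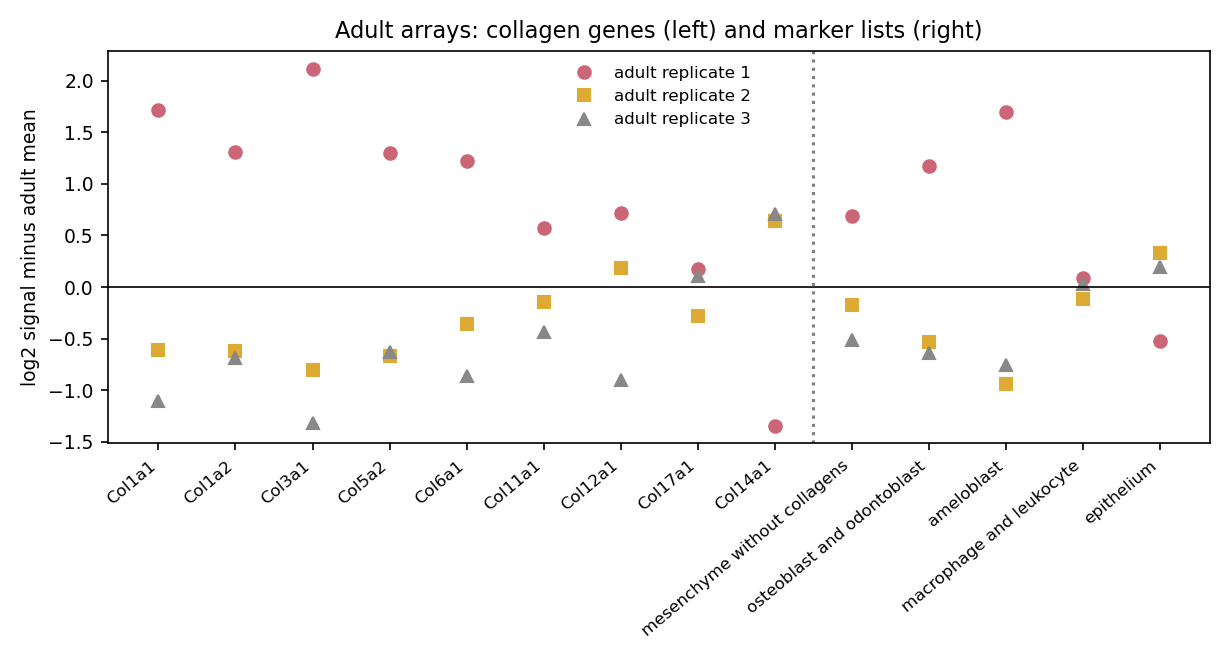
Deviation of each adult array from the adult mean (log2 units, vertical axis) for 9 collagen genes, left of the dotted line, and for the mean signal of 5 marker lists, right of it. Adult replicate 1 lies highest for all collagens shown but Col14a1 and for the mesenchyme, osteoblast and odontoblast, and ameloblast lists, and lowest for the epithelium list.

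The names of the summary's columns carry 1 of 2 digit strings, and what these stand for is not stated. The first string marks 2 adult columns and 1 embryo column, and the second 1 adult, 2 embryo and all 3 mESC columns. All 7 called genes had the same direction within both, which was fixed beforehand because their embryo and adult arrays did not overlap. Within the first and the second string the embryo minus adult difference was -7.41 and -5.14 for Col1a1, -4.08 and -2.49 for Col1a2, -3.66 and -1.78 for Col3a1 and -1.96 and -0.93 for Col11a1. It was -5.81 and -3.23 for Col12a1, -2.12 and -2.87 for Col14a1 and -1.25 and -1.31 for Col17a1. With the string as a block the differences were -6.28 for Col1a1, -4.52 for Col12a1 and -1.28 for Col17a1, and 6 of the 7 stayed called, with Col3a1 lost (-2.72, adjusted p = 0.103). With the columns of the second string alone, which include 1 adult array assumed to vary like the other groups, 3 genes were called (Col12a1, Col14a1 and Col17a1). The name of 1 embryo column of each string is shared, and with these averaged to 1 sample Col3a1 (adjusted p = 0.0864) and Col14a1 (0.0525) lost the call. A fit of the embryo and adult arrays alone, without mESC, lost the same pair (0.141 and 0.0762).

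Against mESC, the embryonic dental cells showed few differences in collagens. Of the 44 genes 1 was called higher and 0 lower (2.27%), where 4.87% of all clusters were called higher, 6.09% lower and 11.0% either way, and the median difference was -0.04 against -0.07 over all clusters. At an unadjusted p under 0.05, 10 collagens passed, beside 15525 of the 39601 clusters. Arrays of the groups did not overlap for 18 of the 44, against 42.0% of all clusters. The called gene was Col17a1, with 1.3 ± 0.13 (SE, embryo minus mESC, limma adjusted p = 0.000205, 2.46-fold). Another 4 genes passed the adjusted p with smaller differences, all higher in embryo: Col4a1 (0.44), Col4a5 (0.38), Col27a1 (0.35) and Col9a3 (0.28). At the adjusted p alone, 4303 of the 39601 clusters were higher in embryo and 6663 lower. Col1a1 differed by -0.66 with a 95% interval of -2.6 to 1.29, so a difference of either sign was within the error. For Col1a2 the estimate was 1.08 (adjusted p = 0.185) and for Col12a1 -1.38 (adjusted p = 0.0821), each with arrays that did not overlap.

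Adult cells differed from mESC at more collagens. Of the 44 genes 10 were called higher and 0 lower (22.7%), where 6.86% of all clusters were called higher, 10.3% lower and 17.1% either way. The median difference was 0.42 (adult minus mESC) against -0.07 over all clusters. For 27 genes the arrays of the groups did not overlap, 26 with adult above, where 47.5% of all clusters had arrays that did not overlap. This comparison shares the adult arrays with that of embryo and adult, and the mESC arrays with that of embryo and mESC, so agreement between them is not separate evidence.

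The fibrillar class again held the most, with 5 of 11 genes called higher in adult than in mESC (6.86% of all clusters). Col1a1 was higher by 5.79 ± 0.84 (SE, limma adjusted p = 0.00101, 55.5-fold), Col1a2 by 4.45 ± 0.55 (adjusted p = 0.000419, 21.9-fold) and Col11a1 by 1.89 ± 0.24 (adjusted p = 0.000502). Col3a1 was higher by 3.23 ± 0.86 (adjusted p = 0.02) and Col5a2 by 1.76 ± 0.48 (adjusted p = 0.0211). Without adult replicate 1 the differences were 4.93 for Col1a1, 3.8 for Col1a2, 2.17 for Col3a1 and 1.11 for Col5a2, all still called. Col3a1 and Col5a2 lost the call without mESC replicate 1 (adjusted p = 0.0641 for Col3a1 and 0.0638 for Col5a2) or mESC replicate 2 (0.0611 and 0.0634). On the mESC arrays Col5a2 gave 5.99, 6.03 and 6.27, all under its adult values.

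Outside that class, Col12a1 (3.16 ± 0.51 SE, limma adjusted p = 0.00178) and Col14a1 (3.11 ± 0.49, adjusted p = 0.00164) were higher in adult than in mESC by similar amounts. Col17a1 was higher by 2.54 ± 0.13 (adjusted p = 4.02e-06, 5.82-fold). Col4a2, at 6.01, 6.11 and 6.36 in mESC, was higher by 1.06 (adjusted p = 0.00476) and fell under the minimum difference without adult replicate 1 (0.87) or mESC replicate 1 (0.98). Col6a2, at 5.14, 5.36 and 5.44 in mESC, was higher by 1.06 (adjusted p = 0.0405), a call lost on leaving out any single array except adult replicate 3, with 0.65 without adult replicate 1. The mESC arrays differed least among themselves, with a spread of 0.151 to 0.172 log2 around their group mean against 0.182 to 0.264 on the dental arrays.

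Proteins that fold, modify, cut, cross-link or bind collagen were followed in 5 lists. The list of chain folding and modification held 19 measured genes, of which 1 was higher and 3 were lower in embryo than in adult (median -0.39). Without adult replicate 1 the counts were 1 and 1, with a median of -0.14. Over all clusters 3.59% were called higher and 2.83% lower, and 1183 and 1112 of 39601 without adult replicate 1. Plod2, the lysyl hydroxylase that prepares collagen ends for cross-links in bone, gave 10.84, 11.26 and 11.21 in embryo, 15.85, 15.08 and 15.5 in adult and 11.58, 11.62 and 11.62 in mESC. Its adult arrays stood well above the rest (-4.37 ± 0.19 SE, limma adjusted p = 1.7e-05), and adult replicate 1 differed little from the others, unlike Col1a1. P4ha3 (-1.13) and P4ha2 (-1.08), prolyl hydroxylase subunits, were also lower, whereas Creb3l1 (1.45), which encodes a transcription factor that drives type I collagen in mouse bone, was higher in embryo. Serpinh1, the chaperone of folding collagen, was higher than in mESC in both embryo (2.92) and adult (2.96).

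The list of secretion and propeptide cleavage held 13 genes, with 0 higher and 2 lower in embryo than in adult (median -0.08). Of all clusters 3.59% were called higher and 2.83% lower. Adamts2, the protease that removes the amino-terminal propeptide of fibrillar collagens, gave 5.62, 5.14 and 4.86 in embryo and 10.57, 9.39 and 8.42 in adult (-4.25 ± 0.48 SE, limma adjusted p = 0.000967). Pcolce, which speeds removal of the propeptide at the other end, gave 6.27, 5.95 and 5.82 in embryo and 9.53, 7.91 and 7.94 in adult (-2.45 ± 0.41, adjusted p = 0.00531). Among the adult arrays, the first gave the highest mean of both lists (10.36 against 9.77 and 9.78, and 8.52 against 7.87 and 7.79), as it did for the type I chains. The protease Bmp1, which makes that second cut, overlapped between the dental groups, at 9.74 to 10.11 in embryo and 9.62 to 10.01 in adult.

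Among 6 cross-linking genes 1 was higher and 2 were lower in embryo than in adult (3.59% and 2.83% of all clusters). Pxdn, the peroxidase that cross-links the type IV network of basement membranes, gave 11.06, 11.66 and 11.17 in embryo, 9.03, 8.86 and 8.93 in adult and 7.77, 7.69 and 7.71 in mESC, groups that did not overlap (2.36 ± 0.15 SE, limma adjusted p = 7.44e-05). The lysyl oxidase relative Loxl1 (-2.45, adjusted p = 0.0178) and the transglutaminase Tgm2 (-1.95, adjusted p = 0.000881) were lower. The call of Loxl1 was lost on leaving out either of 2 arrays.

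Of 10 collagen receptors 1 was higher and 4 were lower in embryo than in adult (3.59% and 2.83% of all clusters). Itga11, an integrin chain for fibrillar collagen on mesenchymal cells, gave 5.45, 4.8 and 5.33 in embryo and 9.94, 7.79 and 6.99 in adult (-3.05 ± 0.68 SE, limma adjusted p = 0.0199). Ddr2, a receptor kinase for fibrillar collagen, gave 6.37, 5.21 and 4.91 in embryo and 10.09, 8.28 and 7.02 in adult (-2.97, adjusted p = 0.0287). Both were highest on adult replicate 1. Itga2, an integrin chain that epithelia also use, differed by -1.64 (adjusted p = 0.0432), with adult replicate 1 the lowest adult array (8.5, 9.79 and 9.52). Lair1, an inhibitory receptor of leukocytes, differed by -1.09 and Adgrg1, a receptor for type III collagen, by 1.47 (adjusted p = 0.0137).

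Among 12 partners of the basement membrane 2 were higher and 4 lower in embryo than in adult (3.59% and 2.83% of all clusters), with a median of -0.5. Nid1, which links laminin to the type IV collagen network, gave 9.18, 7.46 and 6.71 in embryo and 14.46, 10.95 and 10.83 in adult (-4.3 ± 1.02 SE, limma adjusted p = 0.0253), while the type IV chains themselves were not called. Sparc, a collagen-binding matrix protein, differed by -1.97 (adjusted p = 0.00132), Lama1 by -2.15 and Fras1 by -1.7, whereas Lama5 (1.56) and Frem1 (1.25) were higher in embryo. Against mESC, Fras1 was higher in adult by 7.16 and in embryo by 5.46. Of the genes named in these lists, Creb3l1, P4ha3, P4ha2, Itga11, Ddr2, Itga2, Lair1, Adgrg1, Nid1 and Lama5 lost their embryo against adult call in 2 to 7 of the 9 fits that each left out 1 array.

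**Figure D4:**
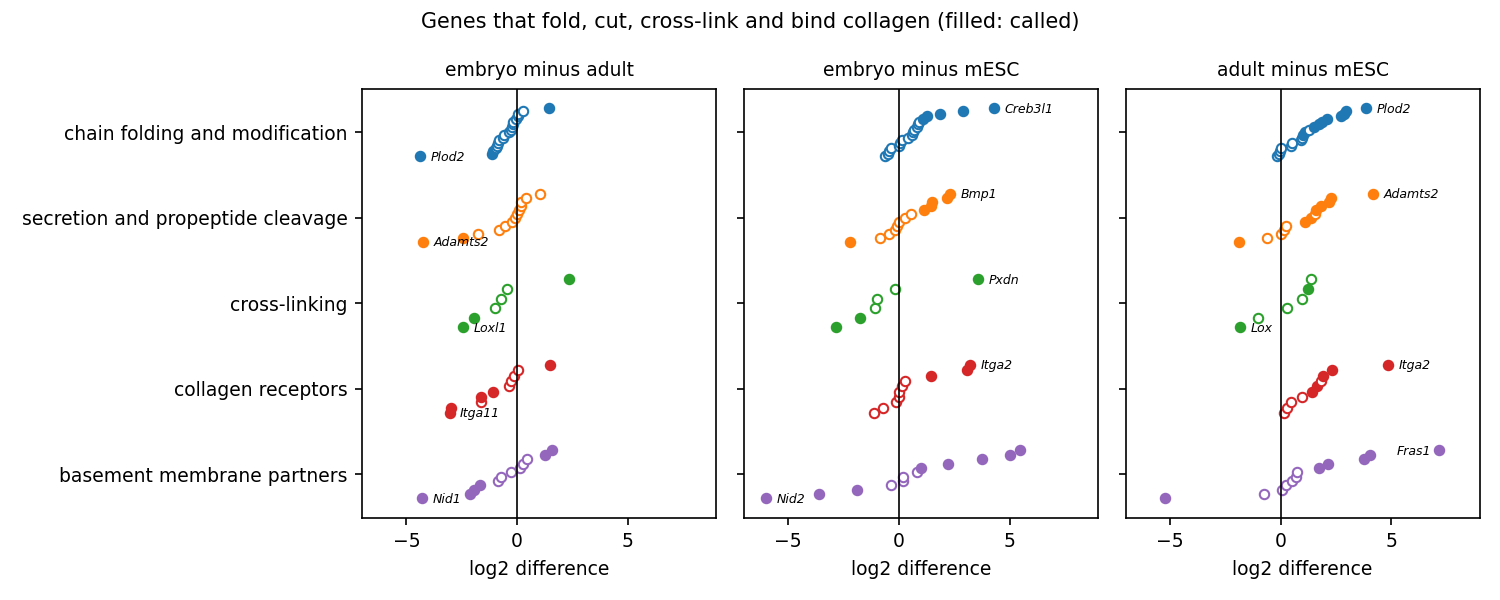
Log2 difference (horizontal axis) of each measured gene in 5 lists of collagen-processing and collagen-binding proteins, for the 3 comparisons. Filled points are called genes, and the gene with the largest absolute difference in each list is named. Plod2, Adamts2 and Nid1 lie lowest in their lists for embryo minus adult, at -4.37, -4.25 and -4.3.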

How the data were processed

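Affymetrix Mouse Transcriptome Arrays measured the total RNA of 9 samples. Each cluster's log2 signals were deposited by the authors, made with SST-RMA per the file headers, and Affymetrix Expression Console, RMA and Transcriptome Analysis Console are named per the submitters' processing notes. RMA scales arrays to one another and compresses dim signals. The effect of the SST step on the size of differences was not examined, so the fold values hold on the deposited scale only. For the cluster coordinates, no genome build is named by the sources used here. All 44 collagen clusters overlapped their gene in GRCm38.p6, and 4 also carry another symbol (Col6a4, Col7a1, Col20a1 and Col25a1).

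Of 65956 clusters, the 39601 with at least 1 symbol were fitted by limma 3.58.1 under R 4.3.3 (lmFit, eBayes without a trend, 9 arrays in 1 fit of 3 group means, 6 residual degrees of freedom) with Benjamini-Hochberg adjustment, and calls needed an adjusted p under 0.05 with a log2 difference of 1 or more in either direction. No filter on signal was applied. The script was tested on simulated data. Levels of different probe sets were not compared. The median of 5222 negative-control probe sets (4.81) marks the background, and 3 arrays a group limit the precision. On single arrays the median of these controls ran from 4.45 to 5.24, so genes near 4.81 are placed only roughly. Tables were handled with data.table (1.17.8), Python 3.11.15 and pandas 2.3.3, and figures drawn with matplotlib 3.10.9.

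The members and the lists were chosen with earlier results of these data known. Of 193 list genes, 184 were measured. Values per array were due for collagens called between embryo and adult, for those with a group mean of at least 10 and for their partner chains, and of other lists for up to 4 genes by absolute difference. Other genes named were chosen after their values were seen. Alternatives covered normalisation, centring, the clusters tested, the variance model, array weights, blocks, single arrays left out and the minimum difference. The replicate numbers did not pair the samples (correlations of deviations -0.08 to 0.154). Promoter sequences are from RefSeq. A gene of the hemidesmosome list, and the counts over that list, are not reported here.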

Additional observations from a re-analysis of the deposited data

How the results depend on the processing

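No called collagen difference reversed under any alternative run, while some uncalled ones near 0 changed sign, such as Col3a1 for embryo minus mESC (0.17, down to -0.23 without single arrays). The compared arrays of each called gene did not overlap, so leaving out arrays could not reverse its direction. The count lower in embryo than in adult (7) was 14 with no minimum difference, 9 over clusters above the negative-control median (Col8a1 and Col6a2 joined), 3 with the columns of the second digit string only (chosen after seeing the data) and 5 to 10 on leaving out single arrays, with 10 without adult replicate 3 and 5 without adult replicate 2, embryo replicate 2 or embryo replicate 3. The count higher (0) was 1 after centring arrays on their median, 1 with no minimum difference and 0 to 1 without single arrays, Col18a1 each time. For embryo against mESC, the count higher (1) was 5 with no minimum difference and 1 to 2 without single arrays, where Col1a2 joined without adult replicate 1 (1.08, adjusted p = 0.0321). The count lower (0) was 1 over clusters above the negative-control median, 1 with array weights and 0 to 1 without single arrays, Col12a1 each time. For adult against mESC, the count higher (10) was 6 with the digit string as a block, 20 with no minimum difference and 6 to 12 without single arrays (6 without mESC replicate 1), and that lower was 0 throughout. Over all clusters, 2254 of 39601 were lower in embryo than in adult with no minimum difference, and 940 to 1164 without single arrays. Above the negative-control median 1117 of 20020 were lower. With no minimum difference, 4303 of 39601 clusters were higher in embryo than in mESC, and 5238 were higher in adult than in mESC. The cause of the shifts in the collagen counts was not tested.

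The replicate block gave 6 collagens lower and 0 higher between embryo and adult (Col3a1 at adjusted p = 0.0513) and 1 and 10 higher than mESC in embryo and adult, so it changed no other call. Median centring moved the median difference of all clusters between embryo and mESC from -0.07 to 0.06 and their calls from 1930 higher and 2413 lower to 2413 and 1914. A second cluster per gene could not be tried, since each collagen has 1. Signals near the negative controls limit the dim chains.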
